A study of Mus musculus with 11 samples.

Results

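The genes described here encode the machinery that fuses vesicles with membranes, above all synaptic vesicles with the plasma membrane: SNARE proteins, the proteins that bind them, synaptotagmins, vesicle membrane proteins, Rab3 GTPases and the active zone scaffold. They were taken by symbol, as every listed gene whose name belongs to 1 of these families, without use of any measured value, which gave 78 of the 37991 genes listed. RNA had been sequenced from 11 cultures that began as neural stem cells of the frontal cortex of C57BL/6J mouse embryos at E14.5 (days of embryonic life). The 3 NSC libraries came from cells at day 0, in a proliferation medium. The other cultures had spent 4 days in another medium, with GlutaMAX in all of them. The Astrocyte group (3 libraries) had DMEM, 1% fetal bovine serum and 1% N-2, the Neuron group (3 libraries) Neurobasal with 2% B-27 supplement, and the Oligodendrocyte group (2 libraries) the Neuron medium with 30 ng/mL of the thyroid hormone T3. Group names thus stand for the medium, and the labels name no sort for a cell type. The series text calls the libraries of a group biological replicates; it does not say whether they came from separate litters or embryos.

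Release of transmitter needs a SNARE bundle, in which synaptobrevin (a Vamp protein) on the vesicle pairs with syntaxin and Snap25 on the plasma membrane. Munc18 proteins chaperone the syntaxins, complexins clamp the bundle, and synaptotagmins, many of which bind calcium, trigger fusion. Rab3 GTPases, Rims, Munc13 proteins (Unc13), Bassoon (Bsn) and Piccolo (Pclo) dock and prime vesicles at the active zone of neurons. Close relatives of the same SNAREs serve fusion in every cell, in the Golgi, in endosomes and at the plasma membrane, and glia use SNAREs to secrete as well.

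The values are counts per gene that the authors had scaled to a common total per library (CPM). Each library rested on an estimated 49.3 to 66.2 M reads. A gene was tested when it reached 1 CPM in at least 2 libraries, which 13342 genes did, among them 65 of the 78 members. The 13 members left out were Cplx3, Cplx4, Stx19, Sv2b, Syngr4, Syt2, Syt4, Syt8, Syt10, Syt13, Syt15, Unc13c and Vamp7, with at most 0.60 CPM in any library. Vamp7 was at 0 in all libraries, and was listed on an unplaced scaffold. Differences between groups are log2 fold changes of CPM + 1, tested with limma on all 11 libraries, and a gene was called at a Benjamini-Hochberg adjusted p under 0.05 over the 13342 genes. The added 1 CPM makes the fold changes of low genes too small.

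Marker lists were used to check the group names. The summed level of 9 neuron markers was 122.6 to 129 CPM in the NSC libraries, 220.5 to 275 CPM in the Astrocyte libraries, 255 to 354 CPM in the Neuron libraries and 332 to 370.2 CPM in the Oligodendrocyte libraries. The list did not move as one: Dcx (mean 1.6 CPM in NSC, 86.6 to 148 CPM at day 4), Elavl3 (17.8, then 44.4 to 178 CPM) and Tubb3 (3.9, then 28.4 to 44.8 CPM) were called higher in all 3 media, as was Rbfox3 at up to a mean of 2.34 CPM. Gap43 (71.0, then 13.4 to 26.4 CPM) and Elavl4 (29.3, then 12.3 to 21.8 CPM) were called lower in all 3. Nefl, Nefm and Stmn2, markers of maturing neurons, were under 1 CPM in every library. The Neuron cultures also had 9998 to 10683 CPM of 10 astrocyte markers and 2722 to 2903 CPM of 10 mature oligodendrocyte markers, against 1912 to 1985 CPM and 74.1 to 82.6 CPM in the NSC libraries. The Neuron name is therefore used only for the medium. Oligodendrocyte precursor markers summed to 3377 to 3501 CPM in NSC, 1875 to 2096 CPM in Astrocyte, 3158 to 4175 CPM in Neuron and 2685 to 2771 CPM in Oligodendrocyte libraries, and neural progenitor markers to 5184 to 5634, 4017 to 4441, 2710 to 3343 and 2945 to 3036 CPM. These sums hide moves in both directions. In the Neuron medium 4 precursor markers were called higher than in NSC and 3 lower, and 4 progenitor markers higher and 4 lower. Gpr17 went from a mean of 6.45 to 863 CPM and Sox2 from 281 to 534 CPM. Olig1 went from 1019 to 440 CPM and Nes from 1251 to 70.4 CPM. Of all tested genes, 43.5% were called higher and 39.6% lower there. Microglia markers summed to at most 1.32 CPM in any library. Endothelial and mesenchymal markers summed to 1.97 to 2.28 CPM in NSC, 47.4 to 49.2 CPM in Astrocyte, 36.0 to 43.5 CPM in Neuron and 10.5 to 13.0 CPM in Oligodendrocyte libraries, at day 4 nearly all from Pdgfrb, a pericyte receptor (means 0.26, 41.9, 37.5 and 8.82 CPM), and Kdr, a receptor of vessel cells (1.27, 5.99, 1.28 and 2.65 CPM). The other 6 genes of that list, Cdh5, Cldn5, Pecam1, Col1a1, Col1a2 and Lum, did not reach the level needed for testing. In bulk RNA, fewer cells of a type and less RNA per cell cannot be told apart. Nor can the medium and the 4 days in culture be told apart in comparisons with NSC, as no culture had been kept in proliferation medium to day 4.

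Neuron replicate 2 stood apart from the other 2 Neuron libraries: per gene, the mean squared difference was 76.7 and 64.4 times the counting variance, against 8.83 between replicates 1 and 3. In this library 7 of the 65 tested members (Bsn, Pclo, Rab3c, Sv2c, Syt1, Unc13a and Vamp1) lay at least 1.5-fold under the mean of the other 2, as did 3.64% of all tested genes, and no member lay 1.5-fold above it. No other library had more than 1 such member, Pclo. In the same library the neuroblast gene Dcx was at 106 CPM against 177 and 160.2 CPM, and the oligodendrocyte precursor gene Gpr17 at 639 CPM against 999 and 950.3 CPM. The other genes of the precursor list were lower there too, such as Pdgfra at 167.6 CPM against 232.3 and 232.5 CPM. So were the neuron markers Elavl3 (78.6 CPM against 97.55 and 96.7 CPM) and Tubb3 (24.9 CPM against 30.5 and 29.96 CPM). Rbfox3 was at 1.65 CPM against 2.8 and 2.57 CPM. Not all neuron markers were lower there: Gap43 was at 21.71 CPM against 21.69 and 21.48 CPM, and Elavl4 at 21.22 CPM against 23.28 and 21.03 CPM. Called log2 fold changes of these 7 members in the Neuron group are given with and without this library. What set this library apart, in the cell mixture or elsewhere, was not tested.

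**Figure D1:**
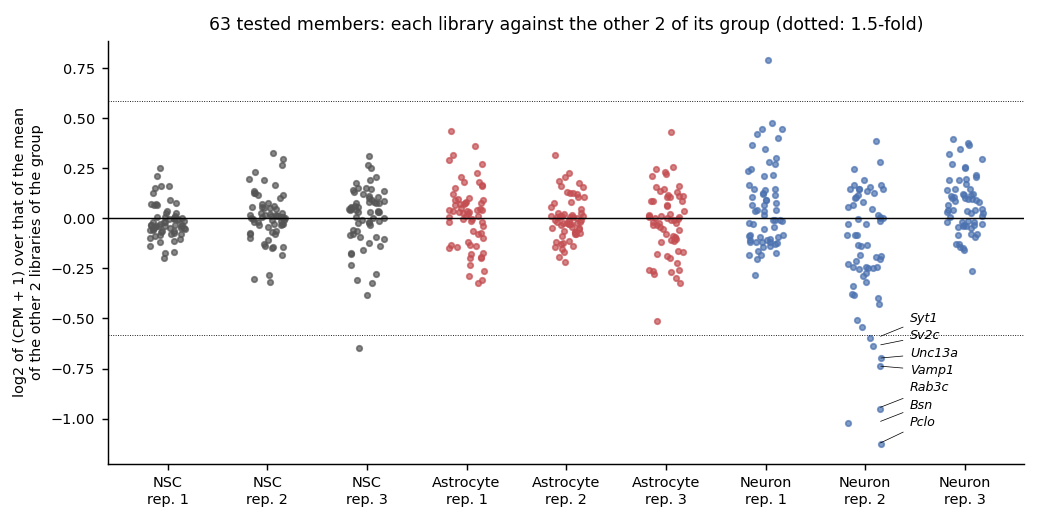
Each point is 1 of 63 tested members; the vertical axis gives the log2 ratio of its CPM + 1 in a library to the mean of the other 2 libraries of the group. Oligodendrocyte libraries are not shown, as there are 2. Dotted lines mark 1.5-fold; 7 members lie below the lower line in Neuron replicate 2 and are named.

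Most members differed between the NSC cultures and each day 4 culture, and more of them were higher than lower after the change of medium. In the Astrocyte medium 40 of 65 members (61.5%) were called higher and 15 (23.1%) lower, against 48.0% and 35.6% of all tested genes. At least 2-fold changes were called upward in 18 members (27.7%, all genes 21.4%) and downward in 4 (6.15%, all genes 12.3%). In the Neuron medium 38 members were called higher (58.5%, all genes 43.5%) and 15 lower (23.1%, all genes 39.6%), with 12 at least 2-fold higher (18.5%, all genes 17.9%) and 4 at least 2-fold lower (6.15%, all genes 13.8%). With T3, in the Oligodendrocyte medium, 42 members were called higher (64.6%, all genes 48.1%) and 13 lower (all genes 32.2%). Of these, 21 were at least 2-fold higher (32.3%, all genes 21.2%) and 4 at least 2-fold lower (6.15%, all genes 10.7%). The median log2 fold change of the tested members was 0.39, 0.39 and 0.59 in the Astrocyte, Neuron and Oligodendrocyte media, beside 0.15, 0.06 and 0.19 over all tested genes. No test set the members against other genes, and the 3 comparisons share the NSC libraries.

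The day 4 media differed less from each other. Against the Neuron medium, 19 members were called higher in the Astrocyte medium (29.2%, all genes 40.3%) and 21 lower (32.3%, all genes 22.0%), with 5 at least 2-fold higher (7.69%, all genes 6.39%) and 3 at least 2-fold lower (4.62%, all genes 2.95%). In the Oligodendrocyte medium 33 were called higher than in the Neuron medium (50.8%, all genes 43.9%) and 17 lower (26.2%, all genes 23.6%), with 7 at least 2-fold higher (10.8%, all genes 8.96%) and 3 at least 2-fold lower (4.62%, all genes 3.58%). Against the Astrocyte medium it had 24 members called higher (36.9%, all genes 28.7%) and 14 lower (21.5%, all genes 23.5%), with 5 at least 2-fold higher (7.69%, all genes 4.53%) and 1 at least 2-fold lower (1.54%, all genes 3.41%). Most of these shares lie near those of all genes.

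The scale bears on these counts. Rescaling the libraries by median of ratios moved the median of all genes to 0.01 in Astrocyte against NSC, from 0.15, and to 0.01 or 0.02 in the other comparisons in which it had been above 0.1. The share of higher calls among called members in Oligodendrocyte against NSC then fell from 76.4% to 67.9%, and to 60.8% under quantile normalization. For Oligodendrocyte against Neuron the shares were 66.0%, 57.4% and 53.1%, and for Astrocyte against Neuron 47.5%, 38.1% and 36.4%. Shares of all genes under rescaling were not counted. Under the 2 rescalings the members' median beside that of all genes was 0.396 beside 0.015 and 0.285 beside -0.041 in Oligodendrocyte against NSC. It was 0.118 beside 0.016 and 0.11 beside -0.02 in Oligodendrocyte against Neuron. In Astrocyte against Neuron it was -0.069 beside 0.006 and -0.15 beside -0.02. Over all 6 comparisons there were 87 calls of at least 2-fold, in 36 members, and all 87 stayed called in the same direction under every alternative in which the gene was tested.

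**Figure D2:**
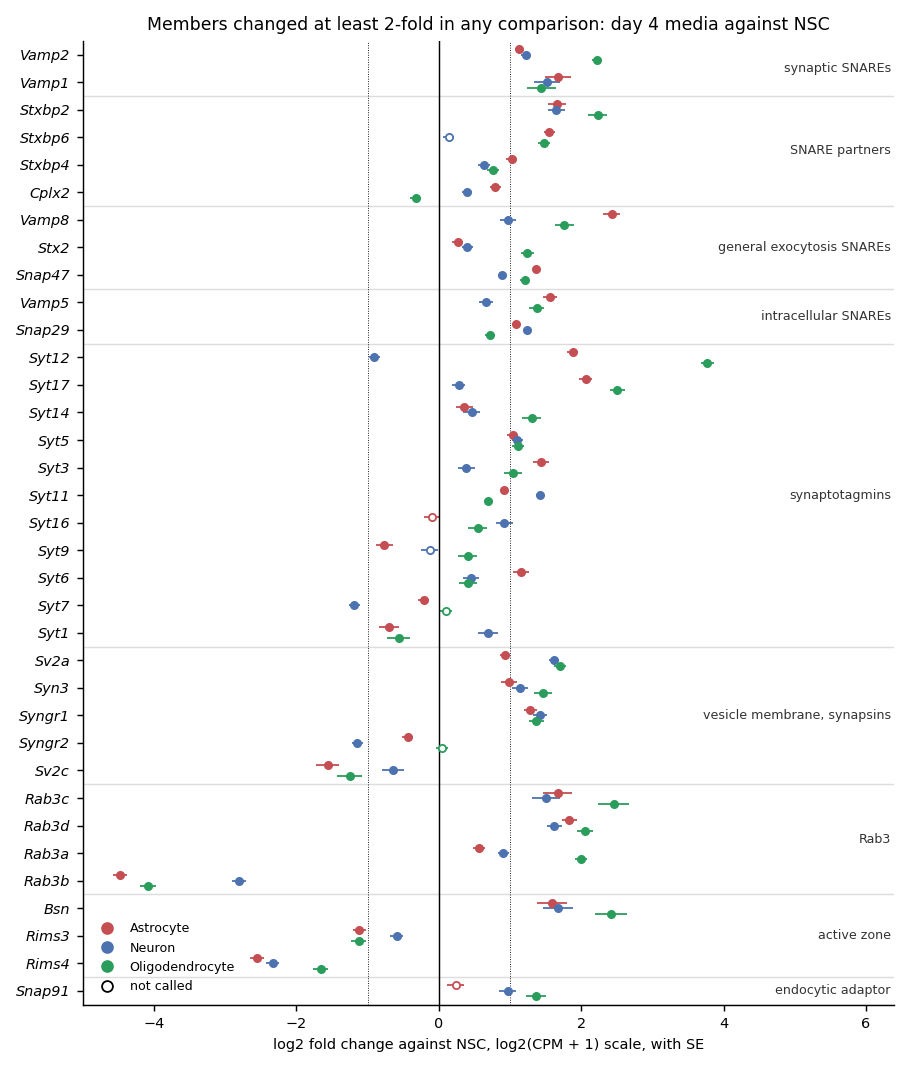
Members with a called change of at least 2-fold in any comparison (35 shown), grouped by role. Points give the log2 fold change against NSC in each day 4 medium, with the standard error; open points were not called, and dotted lines mark 2-fold. Rab3b lies far to the left in all 3 media, Syt12 to the right in the Oligodendrocyte medium and left of 0 in the Neuron medium.

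The promoters of members were read for motifs of factors known from neuronal genes. Windows from 250 bases before to 50 after the start site came from RefSeq (build GRCm38.p6, while the deposited table uses mm9); 60 members matched, with 77 windows. Of the motifs searched on both strands, TTCAGCACC and GGACAGC are parts of RE1, the element bound by the repressor Rest, TGACGTCA (a palindrome) is the cAMP response element, and CAGCTG (a palindrome) is an E-box. TTCAGCACC was in 2.60% of the member windows (Syn1 and Unc13a) and in 0.37% of all 32851 windows. GGACAGC was in 7.79% against 6.56%, TGACGTCA in 1.30% (Syn1) against 1.79%, and CAGCTG in 29.9% (20 members) against 16.3%. AGGTCA, the hexamer of thyroid hormone receptor sites, was searched only once results were known, and was in 14.3% (10 members) against 16.3%. A match describes these letters only.

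The stretches with the rarest match (Syn1, Unc13a) and 2 of members that differed between media (Syt1, Rab3a, picked after their values were seen) follow, 5′ to 3′ on the gene's strand. Capitals mark the motif matches; in Unc13a both RE1 parts are on the opposite strand, as GCTGTCC and GGTGCTGAA. In GRCm38.p6 they lie at chrX:20921049-20921168 (Syn1, minus strand), chr8:71671724-71671753 (Unc13a, minus strand), chr10:109009132-109009271 (Syt1, minus strand) and chr8:70754902-70754941 (Rab3a, plus strand).
Syn1: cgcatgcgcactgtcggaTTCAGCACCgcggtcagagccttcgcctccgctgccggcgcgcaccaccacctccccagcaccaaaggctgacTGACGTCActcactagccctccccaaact
Unc13a: ggcGCTGTCCgcgcccccGGTGCTGAAgcg
Syt1: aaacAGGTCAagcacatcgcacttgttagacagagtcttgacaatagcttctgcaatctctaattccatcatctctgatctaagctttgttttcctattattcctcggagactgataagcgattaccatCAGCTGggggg
Rab3a: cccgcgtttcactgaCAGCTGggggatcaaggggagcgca
In Syn1 the RE1 part and the cAMP response element stand in 1 window, upstream of the start. The Unc13a match lies just after the start site. Syt1 holds the hexamer AGGTCA and the E-box CAGCTG, and Rab3a the E-box.

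Rest itself, no member, was called lower in all 3 media, by small steps: its log2 fold changes were -0.23, -0.23 and -0.28 in the Astrocyte, Neuron and Oligodendrocyte media. Its partner Rcor1 fell further, at -1.08, -1.07 and -1.07. Rcor2 averaged 41.4 CPM in NSC and 15.4, 27.6 and 23.8 CPM in the 3 media. Rcor3 did not fall, with means of 18.2 CPM in NSC and 20.2, 21.9 and 19.3 CPM. Of the members with TTCAGCACC, Unc13a was called higher in all 3 media and Syn1 in the Astrocyte medium. Whether the level of Rest bears on either gene was not tested. Syn1 was at 9.59, 10.5 and 11.3 CPM (NSC), 13.5, 13.03 and 13.2 CPM (Astrocyte), 12.9, 9.6 and 13.6 CPM (Neuron) and 9.56 and 10.5 CPM (Oligodendrocyte). Its called rise in the Astrocyte medium (0.32, SE 0.11, adjusted p = 0.0159) was lost under both rescalings, and the gene Araf on the opposite strand overlaps it, at up to 77.3 CPM. Whether counting used the strand of the reads is not given in the sources used here.

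Counts by role below are to be read against all tested genes, of which 48.0%, 43.5% and 48.1% were called higher and 35.6%, 39.6% and 32.2% lower in the Astrocyte, Neuron and Oligodendrocyte media. All 5 synaptic SNAREs were tested, and 4 rose in the Astrocyte medium, 4 rose and 1 fell in the Neuron medium, and 3 rose and 1 fell in the Oligodendrocyte medium. Vamp2, the synaptobrevin of synaptic vesicles (chr11:68901992-68905886 in mm9), was at 39.1, 39.04 and 43.5 CPM in the NSC libraries, 92.6, 90.8 and 85.5 CPM in the Astrocyte libraries, 95.1, 91.9 and 99.7 CPM in the Neuron libraries and 198 and 188 CPM in the Oligodendrocyte libraries. No groups overlapped except the Astrocyte and Neuron libraries, and the Oligodendrocyte libraries were about 2-fold above both. The log2 fold changes against NSC were 1.13 (SE 0.06), 1.22 (SE 0.06) and 2.23 (SE 0.07), with limma adjusted p of 7.7e-10, 3.63e-10 and 3.2e-12. With T3, against the Neuron medium, the rise was 1.01 (SE 0.07, adjusted p = 3.98e-08).

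Vamp1, the second synaptobrevin, was at 3.77, 3.49 and 3.1 CPM (NSC), 16.3, 12.1 and 11.6 CPM (Astrocyte), 15, 8.11 and 13.4 CPM (Neuron) and 12.2 and 9.96 CPM (Oligodendrocyte). Every day 4 library was above every NSC library, and Neuron replicate 2 was the lowest of them. The log2 fold changes were 1.67, 1.53 and 1.44; without Neuron replicate 2 the Neuron value was 1.77. In that setting Vamp1 was also called lower with T3 than without (-0.33, adjusted p = 0.0432), which it was not with all libraries (-0.09, adjusted p = 0.714). A gene on the opposite strand, Tapbpl, overlaps it, at up to 8.86 CPM.

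Snap25, the plasma membrane partner of Vamp2 in neurons, was low throughout, at 1.42, 1.81 and 1.16 CPM in the NSC libraries, 2.89, 3.04 and 3.14 CPM in the Astrocyte libraries, 2.7, 2.57 and 3.78 CPM in the Neuron libraries and 3.69 and 3.69 CPM in the Oligodendrocyte libraries. All day 4 libraries lay above all NSC libraries. Its log2 fold changes of 0.72, 0.70 and 0.94 were called in all 3 media, but under quantile normalization they were 0.03, 0.23 and 0.27, none called (adjusted p 0.823, 0.0776 and 0.0709). No difference between day 4 media was called (largest difference 0.24, adjusted p = 0.136).

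Stx1a, a plasma membrane syntaxin of neurons, was at 3.33, 3.45 and 3.64 CPM (NSC), 3.16, 3.28 and 2.53 CPM (Astrocyte), 2.98, 1.56 and 2.29 CPM (Neuron) and 4.07 and 3.85 CPM (Oligodendrocyte). The Neuron libraries lay under all NSC libraries. It was called lower than in NSC in the Neuron medium (-0.47, adjusted p = 0.00532) and in no other.

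**Figure D3:**
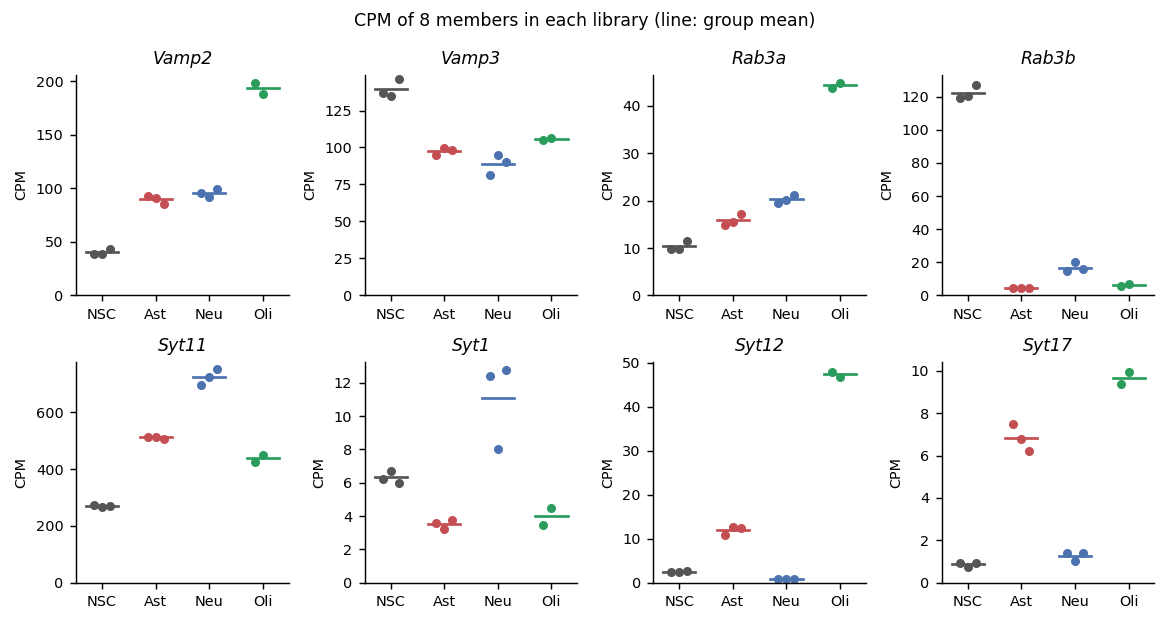
CPM of 8 members in each library, with a line at the group mean. Vamp2, Rab3a and Syt12 are highest in the Oligodendrocyte libraries, Syt11 and Syt1 in the Neuron libraries, and Vamp3 and Rab3b in the NSC libraries.

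Of the 7 tested SNARE partners, 4 rose and 2 fell in the Astrocyte medium, 3 and 2 in the Neuron medium, and 4 and 2 in the Oligodendrocyte medium; Stxbp2, Stxbp4 and Stxbp6 passed 2-fold. Stxbp2 (Munc18-2, which serves granule release in blood and epithelial cells) went from 0.79, 0.45 and 0.83 CPM in the NSC libraries to 5.08, 4.23 and 3.7 CPM in the Astrocyte, 4.93, 3.87 and 4.12 CPM in the Neuron and 7.37 and 6.45 CPM in the Oligodendrocyte libraries. Its log2 fold changes were 1.66, 1.65 and 2.23, and no day 4 library overlapped the NSC range.

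Stxbp6 (amisyn, which competes with synaptobrevin for the SNARE bundle; chr12:45953475-46175480 in mm9) was at 14.1, 13.9 and 14.3 CPM in the NSC libraries, 44.1, 47.02 and 38.9 CPM in the Astrocyte libraries, 14.6, 16.9 and 15.4 CPM in the Neuron libraries and 42.1 and 40.1 CPM in the Oligodendrocyte libraries. It was about 3-fold higher in the Astrocyte and Oligodendrocyte libraries (1.55 and 1.48) and was not called in the Neuron libraries (0.14, adjusted p = 0.121). The direct difference between the Oligodendrocyte and Neuron media was 1.34 (SE 0.09, adjusted p = 2.43e-08). Stxbp4 (Synip, a syntaxin 4 binding protein) averaged 30.2 ± 0.68 CPM in NSC, 62.6 ± 2.35 in Astrocyte, 47.7 ± 5.41 in Neuron (SD, n = 3) and 52.1 ± 3.39 in Oligodendrocyte (SD, n = 2). It rose in all 3 media, and by 2-fold in the Astrocyte medium (1.03). Stxbp5 (tomosyn, an inhibitor of SNARE pairing) changed by -0.16, -0.40 and -0.49 against NSC, called lower in the Neuron and Oligodendrocyte media.

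The complexins went in opposite directions with T3. Cplx1 was at 7.58, 7.55 and 7.48 CPM (NSC), 5.21, 4.97 and 4.63 CPM (Astrocyte), 6.96, 6.01 and 6.4 CPM (Neuron) and 10.2 and 10.7 CPM (Oligodendrocyte), and Cplx2 at 59.1, 60.6 and 66.1 CPM (NSC), 102, 115 and 108 CPM (Astrocyte), 76.4, 78.6 and 90.3 CPM (Neuron) and 49.3 and 48.9 CPM (Oligodendrocyte). For Cplx1 the Oligodendrocyte libraries were the highest of all, while for Cplx2 they were the lowest. Against NSC, Cplx1 changed by -0.53, -0.20 and 0.42 and Cplx2 by 0.80, 0.39 and -0.33, each called. With T3 against the Neuron medium Cplx1 was higher by 0.62 (SE 0.09, adjusted p = 3.08e-05) and Cplx2 differed by -0.72 (SE 0.08, adjusted p = 4.74e-06). The rise of Cplx1 over NSC was lost under quantile normalization, and its fall in the Neuron medium (adjusted p = 0.0297) without any one NSC library, Neuron replicate 2 or Neuron replicate 3.

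SNAREs of general exocytosis, used at the plasma membrane of most cells, held both rises and falls. Of 8 tested, 5 rose and 3 fell in the Astrocyte medium, 3 rose and 3 fell in the Neuron medium, and 3 rose and 3 fell in the Oligodendrocyte medium. Vamp8 (endobrevin, of endosomes and secretory granules) rose from 0.34, 0.17 and 0.51 CPM in the NSC libraries to 5.37, 6.18 and 7.09 CPM in the Astrocyte, 1.5, 1.93 and 1.45 CPM in the Neuron and 3.55 and 3.5 CPM in the Oligodendrocyte libraries. The 4 groups did not overlap, with the Astrocyte libraries highest. Against NSC it rose by 2.43, 0.97 and 1.76, and it was higher in the Astrocyte than in the Neuron medium by 1.46 (SE 0.12, adjusted p = 1.95e-07).

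Vamp3 (cellubrevin, the form of recycling endosomes that astrocytes and other cells use) fell, from 137, 135 and 146 CPM in the NSC libraries to 94.8, 99.95 and 98.5 CPM (Astrocyte), 81.5, 94.97 and 90.03 CPM (Neuron) and 105 and 106 CPM (Oligodendrocyte). All NSC libraries lay above all day 4 libraries, with log2 fold changes of -0.51, -0.64 and -0.39. Snap47, a relative of Snap25, was at 26.4, 26.5 and 29.1 CPM (NSC), 72.2, 72.99 and 71.6 CPM (Astrocyte), 50.8, 51.4 and 52 CPM (Neuron) and 64.2 and 64.5 CPM (Oligodendrocyte), without overlap between groups, and rose by 1.37, 0.89 and 1.21. Stx2 was at 32.5, 33.8 and 34.3 CPM (NSC), 43.6, 40.8 and 37.5 CPM (Astrocyte), 45.6, 39.7 and 48.9 CPM (Neuron) and 81.1 and 80.7 CPM (Oligodendrocyte), and the Oligodendrocyte libraries stood apart above the rest (1.25 against NSC, 0.85 against Neuron, adjusted p = 1.78e-06). Jmjd4 overlaps Snap47 on the opposite strand, at up to 21.5 CPM.

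Below 2-fold, Stx4a was at 36.98, 34.5 and 39.4 CPM in the NSC libraries and 22.9, 24.6 and 21.5 CPM in the Neuron libraries, a fall of 0.66. In the Astrocyte medium its small rise (0.20) was lost under both rescalings; the direct difference between the media was 0.86 (SE 0.08). Reads of Stx4a may be shared with an overlapping gene on the opposite strand. Stx3 changed by at most -0.74 and Stx11 by at most -0.82, both downward against NSC. Snap23, which stands in for Snap25 outside neurons, stayed between 24.1 and 33.7 CPM in all libraries and changed by at most -0.38.

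Of the 11 tested SNAREs of the Golgi, endosomes, lysosomes and endoplasmic reticulum, 8 were called higher and 1 lower in the Astrocyte medium, 7 and 1 in the Neuron medium, and 9 and 1 in the Oligodendrocyte medium. Only Vamp5 and Snap29 passed 2-fold in any comparison. Vamp5, known from muscle and vessel cells, rose from 0.46, 0.68 and 0.67 CPM in the NSC libraries to 3.82, 3.63 and 3.75 CPM (Astrocyte), 1.66, 1.71 and 1.24 CPM (Neuron) and 3.38 and 2.93 CPM (Oligodendrocyte). Pdgfrb, the pericyte gene given above, was also called higher in all 3 media. Col1a1, Col1a2 and Lum of the same list stayed under 1 CPM in every library. The part of the cell mixture in the Vamp5 values was not tested. Snap29, which acts in the fusion of autophagosomes with lysosomes, was at 24.5, 25.6 and 24.7 CPM (NSC), 53.8, 54.3 and 53.7 CPM (Astrocyte), 55.8, 64 and 61.4 CPM (Neuron) and 40.6 and 43.1 CPM (Oligodendrocyte). Its Neuron libraries were the highest and its groups did not overlap; the log2 fold changes were 1.08, 1.24 and 0.72. It is overlapped on the opposite strand by Pi4ka, at up to 132 CPM.

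Of the other 9 in that group, Stx5a (0.76, 0.94 and 0.64), Stx7 (0.39, 0.71 and 0.59), Stx8 (0.79, 0.48 and 0.95) and Stx17 (0.53, 0.27 and 0.96) were called higher in all 3 media. Stx5a serves the Golgi, Stx7 and Stx8 late endosomes, and Stx17 autophagosomes. Stx12, of early endosomes, fell by 0.42 in the Astrocyte medium and by 0.51 in the Oligodendrocyte medium. Vamp4, Stx6, Stx16 and Stx18 changed by at most 0.59, 0.27, 0.57 and 0.39. The calls of Stx18 against NSC in both media, and of Vamp4 in the Astrocyte and Oligodendrocyte media, were lost under median-of-ratios scaling.

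Of the 17 synaptotagmins 11 were tested. In the Astrocyte medium 7 rose and 3 fell, in the Neuron medium 8 rose and 2 fell, and in the Oligodendrocyte medium 9 rose and 1 fell. Quantile normalization turned the sign of 7 of these rises, each under 1 on the log2 scale: Syt14 in the Astrocyte medium, Syt3, Syt6 and Syt17 in the Neuron medium, and Syt6, Syt9 and Syt16 in the Oligodendrocyte medium. These genes stood at no more than 6.58 CPM in the libraries concerned.

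Syt12, a synaptotagmin that lacks the calcium-binding residues (chr19:4445908-4477447 in mm9), showed the largest rise of any member. Its levels were 2.48, 2.54 and 2.59 CPM in the NSC libraries, 10.9, 12.7 and 12.6 CPM in the Astrocyte libraries, 0.95, 0.94 and 0.78 CPM in the Neuron libraries and 47.9 and 46.9 CPM in the Oligodendrocyte libraries. The Neuron libraries lay under the NSC libraries, the Astrocyte libraries above them, and the Oligodendrocyte libraries above all others. Against NSC it rose by 1.88 (SE 0.08, adjusted p = 5.92e-11) in the Astrocyte medium and by 3.77 (SE 0.09, adjusted p = 3.62e-13) in the Oligodendrocyte medium, and fell by 0.91 in the Neuron medium (adjusted p = 1.55e-07). With T3 against the same medium without it, the log2 difference was 4.68 (SE 0.09, adjusted p = 1.1e-12). The gene A930001C03Rik overlaps it on the opposite strand, at up to 2.06 CPM.

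Syt17 (chr7:125525370-125587066 in mm9), which acts in the early secretory pathway, was at 0.93, 0.75 and 0.94 CPM (NSC), 7.49, 6.77 and 6.23 CPM (Astrocyte), 1.4, 1.03 and 1.4 CPM (Neuron) and 9.36 and 9.96 CPM (Oligodendrocyte). Astrocyte and Oligodendrocyte libraries stood above all NSC and Neuron libraries, without overlap. Its log2 fold changes were 2.06 and 2.51 there, and 2.23 with T3 against the Neuron medium (SE 0.11, adjusted p = 1.51e-09). Syt3 and Syt6, of the plasma membrane, were higher in the Astrocyte libraries, at 2.39, 2.71 and 3.78 and 3.08, 3.64 and 3.73 CPM, than in the NSC libraries, at 0.41, 0.49 and 0.45 and 1.22, 1.03 and 0.81 CPM.

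Syt1, the fast calcium sensor of synaptic vesicles (chr10:107934706-108448038 in mm9), was at 6.25, 6.71 and 6.0 CPM in the NSC libraries, 3.58, 3.2 and 3.75 CPM in the Astrocyte libraries, 12.4, 8.0 and 12.8 CPM in the Neuron libraries and 3.49 and 4.47 CPM in the Oligodendrocyte libraries. The Neuron libraries were the highest, with replicate 2 the lowest of them, and the Astrocyte and Oligodendrocyte libraries lay under all NSC libraries. It rose by 0.70 (SE 0.14) in the Neuron medium, or 0.89 without Neuron replicate 2. It fell by 0.70 (SE 0.14) in the Astrocyte medium and by 0.56 (SE 0.16) in the Oligodendrocyte medium, the latter call being lost without Oligodendrocyte replicate 1. The Astrocyte medium differed from the Neuron medium by -1.40 (SE 0.14), or -1.59 without Neuron replicate 2. With T3 it was lower than in the Neuron medium by a log2 difference of -1.26 (SE 0.16, adjusted p = 1.23e-05), and -1.46 without Neuron replicate 2.

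Syt11, which does not bind calcium and is found in neurons and glia, was at 273, 266 and 270.0 CPM in the NSC libraries, 514, 515 and 506 CPM in the Astrocyte libraries, 696, 724 and 753 CPM in the Neuron libraries and 427 and 450.0 CPM in the Oligodendrocyte libraries, so that the 4 groups did not overlap, with the Neuron libraries highest. The log2 fold changes were 0.92, 1.42 and 0.70, and the difference of the Oligodendrocyte from the Neuron medium was -0.72 (SE 0.06, adjusted p = 3.74e-07). Syt7, a slow sensor of high calcium affinity, went the other way, at 36.3, 37.8 and 36.8 CPM (NSC), 27.7, 35.1 and 32.9 CPM (Astrocyte), 15.9, 14.7 and 16.7 CPM (Neuron) and 40.1 and 39.2 CPM (Oligodendrocyte). It fell by 1.18 in the Neuron medium (SE 0.08, adjusted p = 9.98e-09), and with T3 it was not called against NSC (0.10, adjusted p = 0.343).

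The remaining synaptotagmins were low. Syt5 rose in all 3 media, from 0.08, 0.17 and 0.17 CPM in the NSC libraries to between 1.22 and 1.54 CPM at day 4. Syt9, a calcium sensor like Syt1, was at 2.03, 2.35 and 1.55 CPM (NSC), 0.82, 0.88 and 0.54 CPM (Astrocyte), 1.89, 1.48 and 1.76 CPM (Neuron) and 2.65 and 3.23 CPM (Oligodendrocyte), lowest in the Astrocyte and highest in the Oligodendrocyte libraries (log2 difference 1.18, adjusted p = 8.09e-06). Syt16 was at 7.53, 8.38 and 7.75 CPM in the Neuron libraries and at 2.95, 3.66 and 3.63 CPM in the Astrocyte libraries (-1.01, adjusted p = 5.87e-06). Syt14 reached 1 CPM only in the Oligodendrocyte libraries, at 1.93 and 2.08 CPM. It was tested only because of these libraries, so its rise there over NSC (1.31) is partly given by the filter. The counts of rises above include it.

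Vesicle membrane proteins and synapsins, 10 tested, were called higher in 7, 6 and 5 cases in the Astrocyte, Neuron and Oligodendrocyte media, and lower in 3, 3 and 2. Sv2a, a transporter-like glycoprotein of synaptic vesicles, was at 16.2, 16.5 and 16.1 CPM in the NSC libraries, 32.02, 31.6 and 32.1 CPM in the Astrocyte libraries, 53.9, 46.6 and 55.6 CPM in the Neuron libraries and 52.01 and 58.7 CPM in the Oligodendrocyte libraries. The day 4 libraries were all above the NSC libraries, with log2 fold changes of 0.93, 1.62 and 1.70. Its relative Sv2c fell in every medium, from 3.5, 3.57 and 2.48 CPM in the NSC libraries to 0.44, 0.39 and 0.39 CPM in the Astrocyte libraries (-1.56, adjusted p = 5.33e-07). In the Neuron libraries Sv2c was at 1.99, 0.98 and 2.16 CPM, a change of -0.65, or -0.43 without Neuron replicate 2.

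Synaptogyrins split as well. Syngr1, of neuronal vesicles, rose by 1.29, 1.42 and 1.37, from 9.39, 9.06 and 8.64 CPM in the NSC libraries to between 22.3 and 27.5 CPM at day 4. Syngr2, the form of other tissues, was at 18.8, 19.3 and 19.7 CPM (NSC), 12.7, 15.6 and 13.7 CPM (Astrocyte), 7.67, 8.26 and 8.61 CPM (Neuron) and 19.4 and 20.5 CPM (Oligodendrocyte). It fell by 1.14 in the Neuron medium (SE 0.08, adjusted p = 1.2e-08), while the Oligodendrocyte libraries overlapped the NSC libraries. Syngr3 was called higher in all 3 media, but in the Astrocyte and Oligodendrocyte media quantile normalization turned it to called falls (-0.35 and -0.36).

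Syp (synaptophysin, the most widely used marker of synaptic vesicles) was at 10.9, 10.8 and 13.1 CPM in the NSC libraries, 14.8, 15.5 and 16.9 CPM in the Astrocyte libraries, 20.8, 21.6 and 20.9 CPM in the Neuron libraries and 14.4 and 13.96 CPM in the Oligodendrocyte libraries. It was highest in the Neuron libraries, with log2 fold changes of 0.41, 0.82 and 0.27; the rise in the Oligodendrocyte medium was lost under both rescalings. Sypl, its relative outside neurons, changed by -0.23, -0.36 and -0.24, each called. Of the synapsins, which tether vesicles to actin, Syn2 rose in the Astrocyte medium by 0.51 (SE 0.06), and was lower with T3 than there (-0.66, adjusted p = 5.02e-06). Syn3 went from 0.54, 0.7 and 0.69 CPM in the NSC libraries to between 1.99 and 3.68 CPM at day 4. Timp3, which lies within Syn3 on the opposite strand, reached 349 CPM. Timp4, which overlaps Syn2 on the opposite strand, reached 17.15 CPM. Their parts in the Syn3 and Syn2 values were not tested.

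Of the 4 Rab3 GTPases, which mark secretory vesicles, Rab3b fell in every medium and the other 3 rose in every medium, under all scalings run. Rab3b (chr4:108551668-108615929 in mm9) was at 119, 121 and 127 CPM in the NSC libraries, 4.74, 4.47 and 4.41 CPM in the Astrocyte libraries, 14.53, 20.1 and 15.7 CPM in the Neuron libraries and 5.78 and 6.78 CPM in the Oligodendrocyte libraries. The NSC libraries lay far above all others, and the Neuron libraries above those of the other 2 media. The log2 fold changes were -4.48 (SE 0.10), -2.81 (SE 0.10) and -4.09 (SE 0.11), with adjusted p of 1.16e-13, 1.01e-11 and 1.16e-12, the largest falls of any member.

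Rab3a, the main form of synaptic vesicles (chr8:73278578-73282576 in mm9), was at 9.91, 9.81 and 11.4 CPM in the NSC libraries, 14.8, 15.6 and 17.1 CPM in the Astrocyte libraries, 19.5, 20.2 and 21.3 CPM in the Neuron libraries and 43.9 and 44.9 CPM in the Oligodendrocyte libraries. All 4 groups were apart, in the order NSC, Astrocyte, Neuron, Oligodendrocyte. Rab3a rose by 0.56, 0.91 and 2.0 against NSC and by 1.09 with T3 against the Neuron medium (SE 0.09, adjusted p = 1.59e-07). Mpv17l2 overlaps it on the opposite strand, at up to 38.4 CPM.

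Rab3c, also of neuronal vesicles, was at 1.17, 1.15 and 0.98 CPM (NSC), 4.79, 6.3 and 6.04 CPM (Astrocyte), 6.51, 2.85 and 6.36 CPM (Neuron) and 10.3 and 10.8 CPM (Oligodendrocyte), and Rab3d, of exocrine granules, at 1.87, 1.99 and 2.01 CPM (NSC), 8.82, 9.49 and 10.3 CPM (Astrocyte), 8.32, 7.14 and 8.98 CPM (Neuron) and 12.8 and 9.89 CPM (Oligodendrocyte). All day 4 libraries exceeded all NSC libraries for both genes. Rab3c rose by 1.67, 1.51 and 2.46, the Neuron value being 1.83 without Neuron replicate 2, and Rab3d by 1.83, 1.62 and 2.05.

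The active zone genes, 8 tested, had few shared directions: 2 rose and 2 fell in the Astrocyte medium, 3 rose and 2 fell in the Neuron medium, and 5 rose and 2 fell in the Oligodendrocyte medium. Bsn, the giant scaffold protein Bassoon (chr9:107998354-108092715 in mm9), was at 2.72, 3.4 and 3.0 CPM in the NSC libraries, 12.1, 10.7 and 10.7 CPM in the Astrocyte libraries, 15.7, 7.04 and 14.9 CPM in the Neuron libraries and 20.3 and 20.9 CPM in the Oligodendrocyte libraries. Each day 4 library was above each NSC library, and Neuron replicate 2 was the lowest of the day 4 libraries. Bsn changed by 1.59, 1.68 and 2.42 (SE 0.21, 0.21 and 0.23), and the Neuron value was 2.02 without Neuron replicate 2. The difference of the Oligodendrocyte from the Neuron medium was 0.74 (adjusted p = 0.0116), or 0.40 without that library, and it was not called without either Oligodendrocyte library.

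Pclo, the relative of Bassoon, was at 16.6, 17.2 and 10.4 CPM (NSC), 24.8, 22.04 and 16.1 CPM (Astrocyte), 24.9, 9.41 and 18.6 CPM (Neuron) and 26.8 and 24.8 CPM (Oligodendrocyte). The libraries of a group spread widely, and Pclo was called in the Oligodendrocyte medium alone (0.80, adjusted p = 0.0278), a call lost under both rescalings, with no filter, and without NSC replicate 3 or either Oligodendrocyte library. Without Neuron replicate 2 its Neuron value went from 0.18 (adjusted p = 0.552) to 0.55 (adjusted p = 0.0103), and its Astrocyte value of 0.49 (adjusted p = 0.11) was then called too (adjusted p = 0.00996).

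The short Rim proteins fell. Rims4 was at 21.7, 20.3 and 22.9 CPM in the NSC libraries, 2.68, 3.08 and 2.79 CPM in the Astrocyte libraries, 3.69, 3.08 and 3.71 CPM in the Neuron libraries and 5.48 and 6.9 CPM in the Oligodendrocyte libraries, and Rims3 at 9.76, 10.02 and 10.1 CPM (NSC), 3.68, 3.91 and 4.63 CPM (Astrocyte), 5.91, 6.84 and 6.14 CPM (Neuron) and 4.39 and 3.68 CPM (Oligodendrocyte). In both genes all NSC libraries lay above all day 4 libraries, with log2 fold changes of -2.56, -2.33 and -1.66 for Rims4 and -1.12, -0.59 and -1.13 for Rims3. The long forms Rims1 and Rims2, which bind Rab3 and calcium channels, were higher in the Oligodendrocyte medium than in NSC, by 0.95 (SE 0.12, adjusted p = 6.76e-06) and 0.89 (SE 0.14, adjusted p = 3.52e-05). They were also higher there than in the Neuron medium without T3, by 0.89 (adjusted p = 2.46e-05) and 0.55 (adjusted p = 0.00268). Rims2 was called higher in the Neuron medium too (0.34, adjusted p = 0.0189), a call lost under quantile normalization, with no filter, and without NSC replicate 3, Neuron replicate 1 or Neuron replicate 3.

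Unc13a (Munc13-1, the priming factor) was at 5.86, 5.4 and 5.66 CPM (NSC), 11.6, 9.78 and 9.79 CPM (Astrocyte), 11.8, 6.78 and 11.4 CPM (Neuron) and 9.83 and 10.3 CPM (Oligodendrocyte). Its log2 fold changes of 0.78, 0.70 and 0.74 were called in all 3 media, the Neuron value being 0.93 without Neuron replicate 2, and the Oligodendrocyte call was lost under quantile normalization. Glt25d1 overlaps it on the opposite strand, at up to 98.8 CPM. Unc13b, another Munc13, stayed between 23.6 and 33.02 CPM, and was the single tested member with no call in any medium against NSC. Snap91 (AP180, a clathrin adaptor that retrieves vesicle membrane) was at 15.3, 16.5 and 13.9 CPM (NSC), 18.8, 18.2 and 17.3 CPM (Astrocyte), 35.5, 23.7 and 34.3 CPM (Neuron) and 39.8 and 41.7 CPM (Oligodendrocyte), higher in the Neuron and Oligodendrocyte libraries than in all others (0.97 and 1.37), and not called in the Astrocyte medium (0.24, adjusted p = 0.0864).

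Over the 3 comparisons with NSC, 31 of the 65 tested members (47.7%, all genes 34.4%) were called higher in all 3 media and 7 (10.8%, all genes 25.9%) lower in all 3: Rab3b, Rims3, Rims4, Stx11, Sv2c, Sypl and Vamp3. Cplx1, Cplx2, Stx4a, Syt1, Syt9 and Syt12 were called in opposite directions in at least 2 of the media. The share of all tested genes called in opposite directions was not counted. The comparisons share the NSC libraries, so these counts are a description.

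Since the scaling of a library hardly enters a ratio of 2 genes within it, related genes were set against each other in 15 pairs, of which 12 had both genes tested. The log2 ratio of Vamp2 to Vamp3 was -1.78, -1.76 and -1.72 in the NSC libraries, -0.03, -0.14 and -0.20 in the Astrocyte, 0.22, -0.05 and 0.15 in the Neuron, and 0.91 and 0.82 in the Oligodendrocyte libraries. Every day 4 library was above every NSC library, and the mean shifts were 1.63, 1.86 and 2.62. The ratio of Rab3a to Rab3b shifted by 5.04, 3.71 and 6.08 and that of Syngr1 to Syngr2 by 1.72, 2.57 and 1.32, again without overlap. For Snap25 to Snap23 the shifts were 0.45, 0.55 and 1.05, and for Syp to Sypl 0.64, 1.18 and 0.51. In these 5 pairs the mean ratio of the first gene to the second was higher in each medium than in NSC. For Rab3a to Rab3b the fall of Rab3b (-4.48, -2.81 and -4.09) was larger than the rise of Rab3a (0.56, 0.91 and 2.0).

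The other pairs held both shared and mixed directions. The ratio of Cplx1 to Cplx2 shifted by -1.32, -0.59 and 0.75, with no library of a medium in the NSC range. Rims1 to Rims3 shifted by 1.33, 0.65 and 2.08 and Unc13a to Unc13b by 0.56, 0.65 and 0.77, both upward in every medium without overlap. Vamp1 to Vamp2 shifted by 0.55, 0.31 and -0.79 and Syn1 to Syn2 by -0.19, 0.02 and 0.10; the Neuron libraries overlapped NSC for both pairs, as did the Oligodendrocyte libraries for Syn1 to Syn2. With 3 libraries against 3 the two-sided exact permutation test cannot go below p = 0.1, and with 2 against 3 not below 0.2. In 33 of the 36 tests the libraries did not overlap and this smallest p was reached, but the lowest adjusted p was 0.164, so no pair passed.

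**Figure D4:**
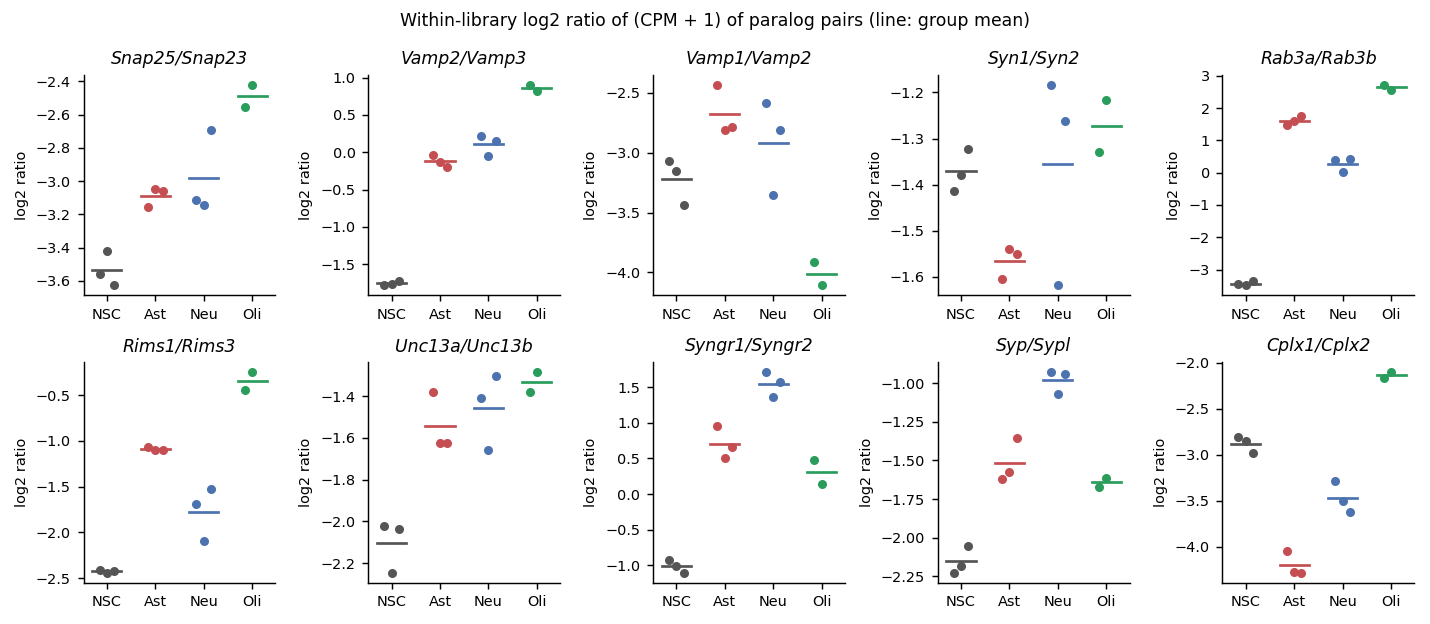
Log2 ratio of CPM + 1 of 2 related members within each library, with a line at the group mean (Ast, Astrocyte; Neu, Neuron; Oli, Oligodendrocyte). Each panel has its own vertical range. The ratios of Vamp2 to Vamp3 and of Rab3a to Rab3b lie higher in every day 4 library than in every NSC library.

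The Oligodendrocyte and Neuron media differ, per the labels, in T3 alone, which makes theirs the comparison with the fewest changes of medium. Among the members with a called difference of at least 2-fold, Syt12, Syt17, Stxbp6, Syt7, Syngr2, Rab3a and Vamp2 were higher with T3, and Rab3b and Syt1 lower. Syt7 was higher by 1.28 (SE 0.09, adjusted p = 5.97e-08) and Syngr2 by 1.19 (SE 0.09, adjusted p = 1.02e-07); both had fallen in the Neuron medium against NSC. The cultures differed in their marker genes too: astrocyte markers summed to 3898 to 4414 CPM with T3 and 9998 to 10683 CPM without, while mature oligodendrocyte markers summed to 2646 to 3036 CPM with T3 and 2722 to 2903 CPM without. The part of the cell mixture in these differences was not tested.

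**Figure D5:**
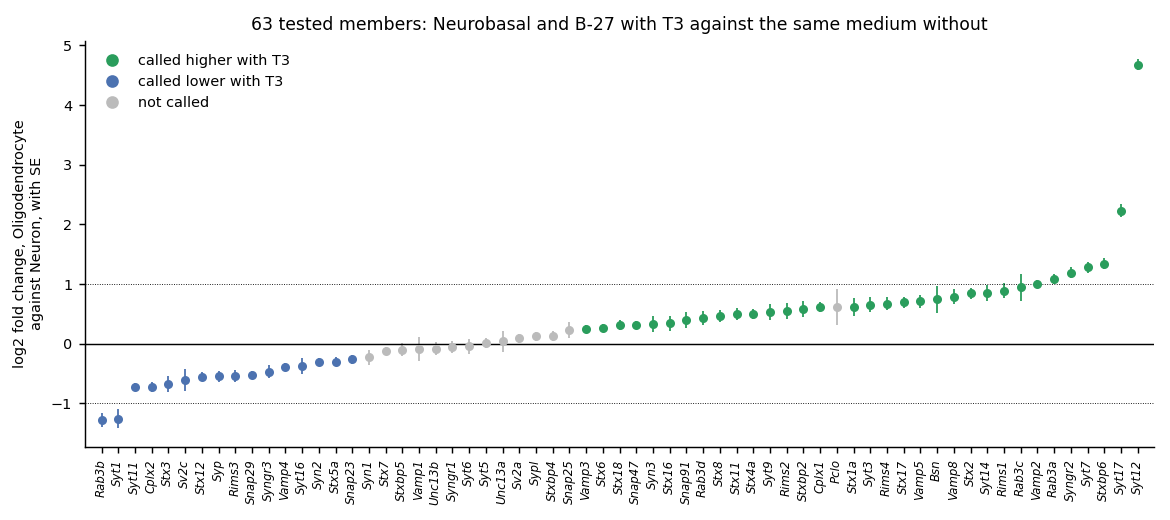
Log2 fold change of each of 63 tested members between the Oligodendrocyte medium (with T3) and the Neuron medium (the same without T3), with the standard error, in order of size. Dotted lines mark 2-fold; Syt12 and Syt17 stand apart at the right, Rab3b and Syt1 at the left.

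The Astrocyte and Neuron media differ in the basal medium, supplement and serum together. There Syt12 (2.78), Syt17 (1.78), Vamp8 (1.46), Stxbp6 (1.41) and Syt3 (1.05) were at least 2-fold higher in the Astrocyte medium, and Rab3b (-1.67), Syt1 (-1.40, or -1.59 without Neuron replicate 2) and Syt16 (-1.01) at least 2-fold lower. Between the Oligodendrocyte and Astrocyte media, Syt12 (1.89), Rab3a (1.43), Syt9 (1.18), Snap91 (1.13) and Vamp2 (1.10) were higher and Cplx2 (-1.12) lower. Leaving out Neuron replicate 2 raised the called members in Astrocyte against Neuron from 40 to 46 (21 higher and 25 lower), and in Neuron against NSC from 53 to 57. Called members also rose in Astrocyte against NSC, from 55 to 60, and in Oligodendrocyte against Astrocyte, from 38 to 43. Neither holds a Neuron library, but the fit pools the variance over all libraries, so the counts do not measure Neuron differences alone. Shares of all genes in this setting were not counted.

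Lists of other genes of vesicle release, none a member, covered the active zone, calcium and effector proteins, SNARE recycling, vesicle retrieval, transmitter loading and chaperones. Of the 45 such genes listed in the data, 31 were tested. In the Astrocyte medium 18 were called higher (58.1%, all genes 48.0%) and 8 lower (25.8%, all genes 35.6%), and in the Neuron medium also 18 (all genes 43.5%) and 8 (all genes 39.6%). In the Oligodendrocyte medium 21 were called higher (67.7%, all genes 48.1%) and 6 lower (19.4%, all genes 32.2%). A further 22 genes, 18 of intracellular SNAREs and their partners and 4 of the RE1 repressor, were called higher in 13, 11 and 15 cases and lower in 5, 7 and 4. No test set these lists against other genes. In the active zone, Erc1 (2.11, 1.85 and 1.83), Erc2 (1.57, 1.34 and 1.63) and Bzrap1 (3.33, 2.90 and 3.22), which bind Rims and calcium channels, rose at least 2-fold in all 3 media. So did Rph3a, the Rab3 effector rabphilin (1.74, 2.13 and 2.41). Cadps, which primes dense-core vesicles, rose against NSC in the Oligodendrocyte medium (2.17) and in the Astrocyte medium (1.13), and was not called in the Neuron medium (0.15, adjusted p = 0.207).

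Genes of vesicle retrieval held rises and falls. Dnm3, a dynamin of neurons, rose by 2.16, 3.51 and 3.89 and Sh3gl3, an endophilin, by 2.14, 4.15 and 3.40, while the endophilin Sh3gl2 fell by 1.53, 0.87 and 1.29. Nsf, which takes SNARE bundles apart, changed by -0.47, -0.58 and 0.12, called lower in the Astrocyte and Neuron media. For transmitter loading, Slc17a6, Slc17a7 and Slc17a8, the vesicular glutamate transporters, did not reach the levels needed for testing, and Gad2 and Slc32a1, which make GABA and load it into vesicles, were low. Gad2 averaged 0.15 CPM in NSC and 1.65, 0.65 and 1.21 CPM in the Astrocyte, Neuron and Oligodendrocyte libraries, and Slc32a1 0.02 and 2.48, 0.70 and 1.25 CPM. Both were called higher in all 3 media, by 1.17, 0.50 and 0.93 and by 1.74, 0.71 and 1.12. Gad1, the other enzyme that makes GABA, changed by 0.51, 1.13 and -0.80, with a difference of -1.93 between the Oligodendrocyte and Neuron media (SE 0.13, adjusted p = 3.13e-08).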

How the data were processed

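The deposited values are CPM, rounded to 2 decimals, of 37991 genes in 11 libraries, with mm9 coordinates, per the file headers. The TruSeq Stranded mRNA kit was used, per the labels' protocols. The submitters' processing notes list bcl2fastq 1.8.4, TopHat2 2.0.8, HTSeq 0.6.1, edgeR 3.2.4, R 3.0.0, HOMER and the build NCBIM37, without saying what each did; for the annotation release and the strand setting of counting, the entry is: not given in the sources used here. Listed genes made up 74.95% to 80.25% of the scale. Low values fell on steps of 1 read (0.0151 to 0.0203 CPM), which gave the depth (49.3 to 66.2 M reads); as a step is close to the rounding unit, whole reads were not recovered and no count model was used.

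Values were taken as log2(CPM + 1), with genes of at least 1 CPM in at least 2 libraries, and fitted with limma 3.58.1 in R 4.3.3 (1 mean per group, all 11 libraries, eBayes with trend, 7 residual and 5.96 prior degrees of freedom; two-sided; Benjamini-Hochberg within each of 6 comparisons; threshold 0.05). The procedure was tested on simulated data. Permutation tests used scipy 1.17.1. Members, role groups and lists were chosen with earlier results of these data known. Members called and at least 2-fold in any comparison were named with values, the rest by role with their largest change; 2 tested members count in the totals but are not reported here. Alternatives were pseudocounts of 0.1 and 5 CPM, no filter, a filter of 5 CPM, median-of-ratios scaling, quantile normalization, the replicate block, fits on the 2 groups compared, and each library left out. Replicate pairs differed by 4.5 to 76.7 times the counting variance, so no library was counted as a repeat of another. The main fit did not pair samples by replicate number. P-values measure the spread between these libraries. Counts of 15 members may share reads with an overlapping gene on the opposite strand.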

Additional observations from a re-analysis of the deposited data

Results flagged for a closer look

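In 6 members, 10 differences between media were flagged because the called changes against NSC went in opposite directions and the direct comparison of the media was called (limma, adjusted p over all tested genes). With called changes on both sides of the same NSC mean, a called direct difference is nearly given. The share of all tested genes with this pattern was not counted, so the number is a description. The 2 comparisons share the NSC libraries. The size of the direct difference does not use them, but its adjusted p rests on a variance pooled over all 11 libraries. The range-based test for an outlying library was not run on groups of 2 or 3.

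For Syt12 the log2 difference was 2.78 between the Astrocyte and Neuron media (adjusted p = 3.1e-11) and 4.68 between the Oligodendrocyte and Neuron media (adjusted p = 1.1e-12). Syt1 went the other way, at -1.40 (adjusted p = 1.87e-06) and -1.26 (adjusted p = 1.23e-05) in the same comparisons. Neuron replicate 2, which stood apart from the other Neuron libraries, enters both; without it they were -1.59 and -1.46. Stx4a was higher in the Astrocyte than in the Neuron medium by 0.86 (adjusted p = 4.97e-07), but its rise over NSC in the Astrocyte medium did not hold under either rescaling.

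With T3, in the Oligodendrocyte medium, Cplx1 was higher by 0.62 than in the Neuron medium (adjusted p = 3.08e-05) and by 0.94 than in the Astrocyte medium (adjusted p = 1.05e-06). Cplx2 differed by -0.72 (adjusted p = 4.74e-06) and -1.12 (adjusted p = 1.35e-07). Syt9 was higher in the Oligodendrocyte than in the Astrocyte medium by 1.18 (adjusted p = 8.09e-06), at no more than 3.23 CPM in any library.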

How the results depend on the processing

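Counts of called members stayed within 1.5 times the main count under every alternative. With a pseudocount of 0.1 CPM, the called changes of at least 2-fold numbered 13 in Astrocyte against Neuron (8 with 1 CPM), 18 in Oligodendrocyte against Neuron (10) and 11 in Oligodendrocyte against Astrocyte (6). With 5 CPM they numbered 12 in Astrocyte against NSC (22), 9 in Neuron against NSC (16), 16 in Oligodendrocyte against NSC (25), 3 in Astrocyte against Neuron and 4 in Oligodendrocyte against Neuron; a larger pseudocount shrinks the fold changes of low genes by construction. Leaving out each library in turn gave 53 to 60, 49 to 57 and 47 to 55 called members in the Astrocyte, Neuron and Oligodendrocyte media against NSC, 36 to 46 in Astrocyte against Neuron, 43 to 53 in Oligodendrocyte against Neuron and 26 to 43 in Oligodendrocyte against Astrocyte. Of 291 single calls 225 held in every alternative, 66 were lost or turned in at least 1, and 9 turned in sign, all under quantile normalization: Syngr3 in the Astrocyte (-0.35) and Oligodendrocyte (-0.36) media, Syt14 in the Astrocyte medium (-0.23), Syt17 (-0.21), Syt3 (-0.12) and Syt6 (-0.01) in the Neuron medium, and Syt6 (-0.24), Syt16 (-0.012) and Syt9 (-0.25) in the Oligodendrocyte medium. The cause was not tested. In the Neuron medium the ratio of Vamp1 to Vamp2 turned with a pseudocount of 5 CPM (-0.15) and that of Syn1 to Syn2 with 5 CPM (-0.0064) and without NSC replicate 1, Neuron replicate 1 or Neuron replicate 3 (range over the libraries left out -0.0692 to 0.15); neither was called. With the replicate block, called members numbered 55, 54, 55, 41, 49 and 38 in the order of comparisons used above, and 22, 16, 26, 8, 9 and 6 of at least 2-fold. Replicate numbers showed no clear pairing of the samples: deviations of same-numbered libraries correlated between -0.51 and 0.41 (15 pairs), those of others between -0.54 and 0.54. Deviations within a group of 2 or 3 libraries sum to 0, so these correlations depend on each other and cannot exclude pairing. For members under about 1 CPM, the filter and the added 1 CPM limit what these results can show.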
